A study of Mus musculus with 6 samples.

Results

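The ISG15 conjugation system comprised 5 genes of the 59485 in the deposited table, taken by their symbols: *Isg15*, which encodes the modifier, and the genes of its activating enzyme or E1 (*Uba7*), conjugating enzyme or E2 (*Ube2l6*), ligase or E3 (*Herc6*) and deconjugase (*Usp18*). Each of the 6 libraries came from the sciatic nerves of another animal at postnatal day 4 (P4), 3 of them controls and 3 mutants. The mutants carried HtPA-Cre, 2 floxed *Adar1* alleles and the R26R tracer. Cre was driven by the human tissue plasminogen promoter, so that by design *Adar1*, the gene of an enzyme that edits adenosine to inosine in double-stranded RNA, is deleted in neural crest (NC) cells and their derivatives, such as Schwann cells (SCs), and kept in the other cells of the nerve. The control animals are wild-type by their labels, which in the crosses of the study means R26R animals that lack Cre and carry the floxed *Adar1* allele in 1 copy (*Adar1* fl/+) or in 2 (*Adar1* fl/fl). The libraries labelled mutant were compared with those labelled control to ask how the genes of this system differed in their RNA level.

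ISG15 is a small protein made of a pair of ubiquitin-like domains, and its gene belongs to those that interferon induces. UBA7 activates it, UBE2L6 (also called UBCH8) carries it, and HERC6, the main ligase of the pathway in mice, attaches it to target proteins. This series of steps, ISGylation, runs beside the ubiquitin pathway with enzymes of the same families. USP18 removes ISG15 from its targets and also binds the interferon receptor subunit IFNAR2, where it dampens signaling. Type I interferons act through IFNAR1 and IFNAR2, the kinases JAK1 and TYK2, and a complex that holds STAT2 and IRF9 and binds the interferon-stimulated response element (ISRE) in promoters.

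The promoter windows of 4 members, from 250 bases before to 50 after the start, were found in the RefSeq table for GRCm38.p6, while *Usp18* had no entry. They were searched on both strands for the ISRE core GAAANNGAAA, for the shorter IRF element AANNGAAA, which lies inside the ISRE, and for the STAT element TTCNNNGAA. These letters were found in 3.44, 23.9 and 8.3% of all 32851 windows. *Isg15* held 3 ISRE cores, which overlap each other between positions -78 and -57 from the start, and 4 IRF elements, 3 of them inside these cores and the other at -128 to -121. *Uba7* held no ISRE core and 1 IRF element, on the minus strand at -27 to -20. For *Ube2l6* and *Herc6* none of these letters occurred within the window, which says nothing of sites elsewhere. The 100 bases before the start of *Isg15* (chr4:156200819-156200918, minus strand) are shown with the run of overlapping ISRE cores in capitals, and 30 bases ending 10 before the start of *Uba7* (chr9:107975528-107975557, plus strand) with its IRF element in capitals, since these are the members with a match.
Isg15: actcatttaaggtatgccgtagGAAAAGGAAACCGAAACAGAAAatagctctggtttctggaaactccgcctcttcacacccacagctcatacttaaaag
Uba7: aactcagtctagTTTCACTTttggtttcct

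The values are reads counted on constitutive regions of each gene and divided by a size factor per library by the authors. Dividing by the value of 1 read gave whole numbers throughout, and the libraries held between 50938349 and 78250094 reads on genes. The targeted gene *Adar* had values of 1602.4, 2066.5 and 1132.9 in the libraries labelled control and of 11768.5, 9310.8 and 9773.0 in those labelled mutant (replicates 1, 2 and 3 each). The difference was 2.72 on the log2 scale (SE 0.20, adjusted p = 4.1e-05 from limma). It was thus higher where the labels place a deletion, and 1 value per gene does not separate the floxed segment from the rest or NC cells from other cells. All directions below therefore refer to the labels. The SC markers *S100b*, *Erbb3* and *Sox10* were present in every library, and *S100b* and *Erbb3* were called lower in the mutant-labelled ones. *Sox10* was also lower there, without a 2-fold change (log2 fold change -0.71, adjusted p = 0.00874 from limma). In a whole nerve, fewer cells of a type and less RNA per cell cannot be told apart.

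All 5 members were higher in mutant-labelled libraries, by 9.702- to 63.43-fold as ratios of means, and each passed the threshold (2-fold or more on the log2(value + 1) scale of limma, with an unadjusted p no higher than 0.05). Of the 25802 genes tested, 3580 (13.9%) passed it in this direction. Every mutant-labelled value of every member lay above every control-labelled value, as was the case for 25.9% of the genes tested. The median log2 fold change of the members was 4.96, while that of all tested genes was 0.03. By log2 fold change, the order was *Isg15*, *Usp18*, *Herc6*, *Uba7* and *Ube2l6*, but within libraries the change of *Isg15* was not separated from those of *Usp18* and *Herc6*, nor that of *Uba7* from that of *Ube2l6*, as given below.

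**Figure D1:**
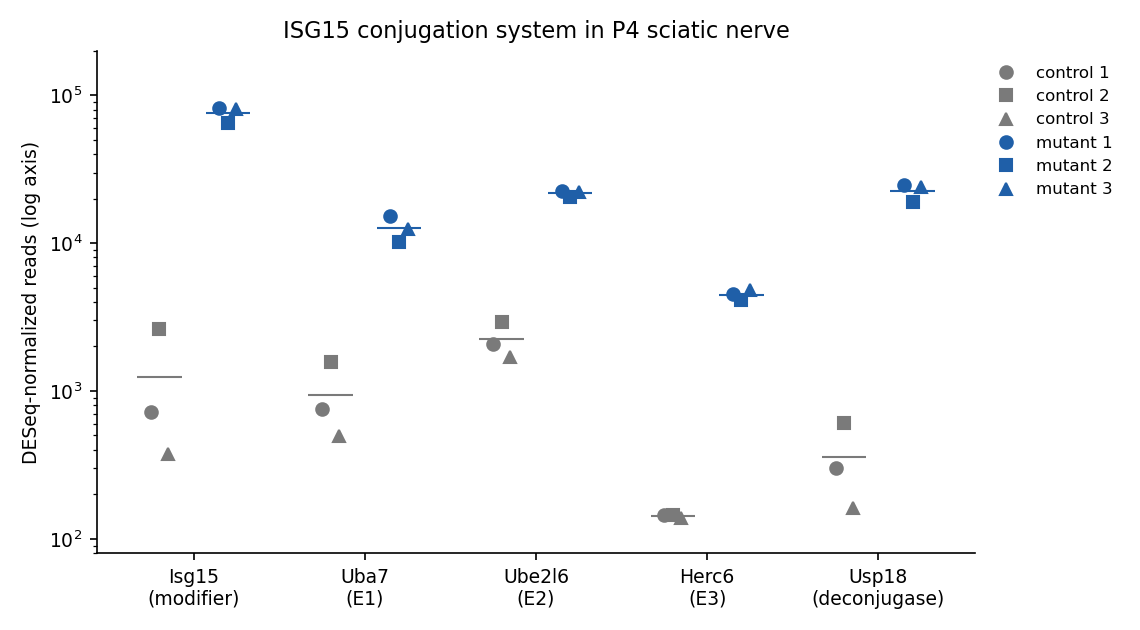
DESeq-normalized reads of the 5 members (log axis) in each library, with grey symbols for libraries labelled control, blue symbols for libraries labelled mutant, the symbol shape for the replicate number and a bar at the mean of each group of 3. All mutant-labelled values lie above the control-labelled ones, and control-labelled replicate 2 is the highest of its group for all members but *Herc6*.

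*Isg15* (GSMG0028769, chromosome 4, 156199424 to 156200818, minus strand of mm10) is a short gene of 2 exons. Values of replicates 1, 2 and 3, in this order throughout, were 721.8, 2635.3 and 375.1 in control-labelled libraries, whereas the mutant-labelled libraries stood at 81557.5, 65130.2 and 80302.8. The controls spread over a 7.026-fold range and the mutants over a 1.252-fold range, and the groups lay far apart. The mean rose from 1244.1 ± 1217.3 to 75663.5 ± 9143.6 (SD, n = 3 each), which is 6.39 on the log2 scale (SE 0.58, 95% interval 5.07 to 7.72, adjusted p = 0.000101 from limma). This placed *Isg15* at rank 89 of the 3580 genes called higher. Control-labelled replicates decided part of the size, since the log2 fold change was 7.17 without replicate 2 and 5.77 without replicate 3. A processed pseudogene elsewhere in the genome is 95.23% identical to the *Isg15* transcript over 482 of its 756 bases, and the counting could share reads between them.

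*Uba7* (GSMG0040071, chromosome 9, 107975560 to 107995007, plus strand) encodes the E1, which forms a thioester with ISG15 and hands it on. From 754, 1561.0 and 492.9 in control-labelled libraries it went to 15140.7, 10227.4 and 12439.6. It rose by 3.90 on the log2 scale (SE 0.36, 95% interval 3.07 to 4.73, adjusted p = 0.000115 from limma), and its rank among the genes called higher was 706. The mutant-labelled values spread over a 1.48-fold range, the widest of the 5 members. The table's interval runs past the end of the 24-exon gene in GENCODE (107984060) and ends with *Gm20661*, a gene on the same strand, so reads of *Gm20661* and of *Cdhr4*, which begins before that end, could be part of the value. *Fam212a*, on the opposite strand within it, had overlapping values of 2113.2 to 2691.1 in control-labelled and 1936.5 to 2660.6 in mutant-labelled libraries.

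*Ube2l6* (GSMG0021311, chromosome 2, 84798826 to 84810176, plus strand), the E2 gene, has 4 exons. It had the smallest change of the members, from 2067.6, 2944.3 and 1701.9 to 22616.8, 20378.6 and 22139.4. The mean went from 2237.9 ± 638.5 to 21711.6 ± 1178.9 (SD, n = 3), a difference of 3.31 on the log2 scale (SE 0.18, 95% interval 2.90 to 3.73, adjusted p = 9.64e-06 from limma). Its rank was 1084. The mutant-labelled libraries differed by no more than 1.11-fold. A stretch of its 1560-base transcript recurs in other transcripts, the longest match being 508 bases at 95.08% identity in *Gm17167*, and reads from it may be shared.

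*Herc6* (GSMG0065122, chromosome 6, 57580992 to 57665136, plus strand) encodes a HECT-type ligase with RCC1-like repeats, and has 23 exons. Control-labelled libraries were low and even, with 145.5, 144.6 and 138.1, and those labelled mutant had 4508.4, 4121.8 and 4803.9. The log2 fold change was 4.96 (SE 0.13, 95% interval 4.67 to 5.25, adjusted p = 8.4e-07 from limma). By adjusted p, *Herc6* was at rank 1 of all genes tested, where genes with an equal adjusted p share a rank. The control values rest on 131, 153 and 109 reads, for which counting alone gives a coefficient of variation of 8.74%, so the 2.806% seen here is below what reads of this number can resolve. *Pyurf*, on the opposite strand within the same interval, was at 530.1 to 991 in control-labelled and 648.8 to 1122.1 in mutant-labelled libraries, with overlapping groups. GENCODE also has the uncharacterized transcript *Gm45193* on the strand of *Herc6*.

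*Usp18* (GSMG0032428, chromosome 6, 121245904 to 121270917, plus strand), the deconjugase gene, has 11 exons. Its control values of 303.2, 602.8 and 162.2 rose to 24600.4, 19115.6 and 24042.4, from a mean of 356.1 ± 225 to one of 22586.1 ± 3018.5 (SD, n = 3). The log2 fold change of 6.18 (SE 0.39, 95% interval 5.27 to 7.08, adjusted p = 1.85e-05 from limma) came at rank 110 of the genes called higher. The log2 fold change was 6.65 without control-labelled replicate 2 and 5.71 without replicate 3. The ratio of means was 63.43, and those of *Isg15*, *Uba7*, *Ube2l6* and *Herc6* were 60.82, 13.46, 9.702 and 31.38. As ratios of means, *Usp18* and *Isg15* thus had the reverse of their log2 order. A noncoding gene, *Gm44148*, lies antisense to *Usp18* in GENCODE.

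The spread between libraries had a common order in most members. Control-labelled replicate 2 was the highest and replicate 3 the lowest control for *Isg15*, *Uba7*, *Ube2l6* and *Usp18*, an order found in 13.19% of all genes tested and 16.73% of those called higher. For *Isg15*, replicate 2 stood at 2.118 times the control mean and replicate 3 at 0.302 times. The coefficients of variation of these 4 members among the controls were 28.53 to 97.85%, against a counting error of 2.18 to 5.37%. The median was 17.59% over the tested genes with a control-labelled mean of at least 10. Of all genes tested, 60.03% had a smaller coefficient than *Ube2l6* and 91.34% a smaller one than *Isg15*. Among the mutant-labelled libraries, replicate 2 was the lowest for all 5 members, as it was for 36.3% of the genes tested. There, the coefficients of variation of the members were 5.43 to 19.53%. The median was 19.66% over the tested genes with a mutant-labelled mean of at least 10. Among the genes of interferon signaling, ISG15 substrates and ISG15 partners that were called higher and had control reads, 8 of 10 had the same order in the controls. Control-labelled replicate 2 also had the lowest values of the skeletal muscle genes *Acta1* (1523.2 against 9727.5 and 8069.6) and *Ckm* (379.8 against 2159.8 and 1309.0), and the part of muscle RNA in the order was not tested.

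**Figure D2:**
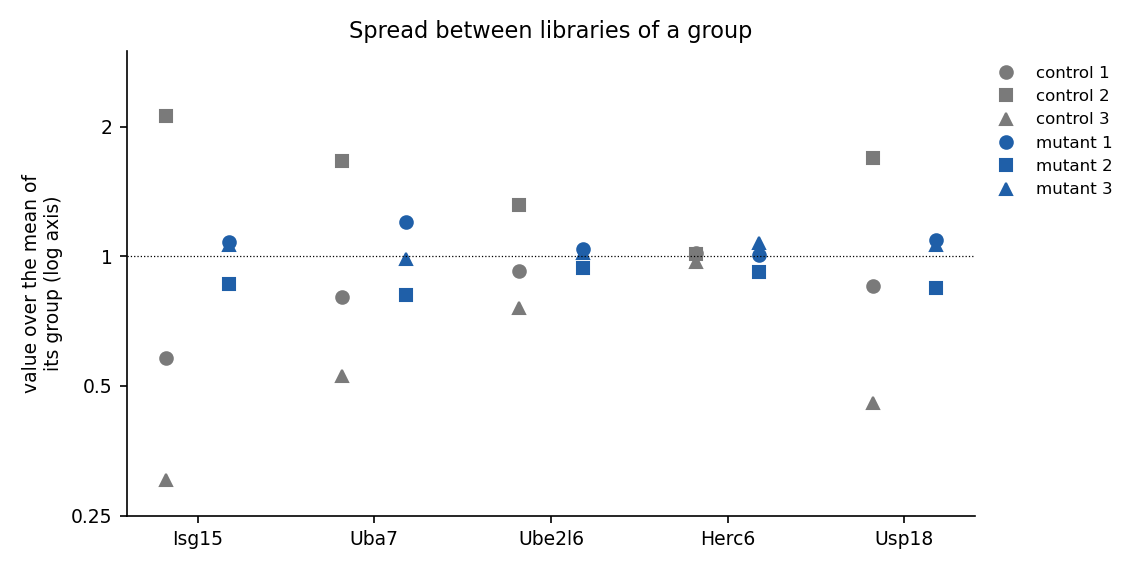
Each library's value divided by the mean of its own group (log axis) for the 5 members, with grey for libraries labelled control, blue for libraries labelled mutant and the symbol shape for the replicate number. Control-labelled replicate 2 reaches 2.118 for *Isg15* and replicate 3 falls to 0.302, whereas the 3 controls of *Herc6* lie between 0.968 and 1.019.

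The members were then compared with each other within each library, as the difference of their log2(value + 1), which does not depend on the scaling of the library. The level of such a difference also reflects the length of the counted regions, so only its shift, the mutant-labelled minus the control-labelled mean, is read. Shifts were tested by two-sided exact permutation, for which 0.1 is the smallest p that 3 libraries against 3 allow, so no shift could pass 0.05. *Isg15* minus *Usp18* was 1.25, 2.13 and 1.20 with the control label and 1.73, 1.77 and 1.74 with the mutant label. The groups overlapped (shift 0.22, SE 0.30, exact two-sided permutation p = 0.4), and the mutant-labelled values lay close together. *Uba7* minus *Usp18* was 1.31, 1.37 and 1.60 with the control label and -0.70, -0.90 and -0.95 with the mutant label. The groups were separated, with a shift of -2.28 (SE 0.12). *Ube2l6* minus *Usp18* went from 2.77, 2.29 and 3.38 to -0.12, 0.09 and -0.12, a shift of -2.86 (SE 0.33), likewise toward the deconjugase. *Isg15* minus *Uba7* shifted by 2.50 (SE 0.35) and *Isg15* minus *Ube2l6* by 3.08 (SE 0.60), again with separated groups.

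For the ligase, *Uba7* minus *Herc6* shifted by -1.06 (SE 0.49), *Ube2l6* minus *Herc6* by -1.65 (SE 0.22) and *Herc6* minus *Usp18* by -1.22 (SE 0.53). *Isg15* minus *Herc6* shifted by 1.43, with overlapping groups (exact permutation p = 0.4), and *Uba7* minus *Ube2l6* by 0.58, also overlapping (exact permutation p = 0.2). The groups were separated in 7 of the 10 pairs, each with an exact permutation p of 0.1 and an adjusted p of 0.143 over the 10 pairs. Some shifts moved with the controls, as *Isg15* minus *Herc6* was 2.20 without control-labelled replicate 2 and 0.83 without replicate 3, *Herc6* minus *Usp18* was -1.69 and -0.77, *Uba7* minus *Herc6* was -0.62 and -1.42, *Isg15* minus *Usp18* was 0.52 and 0.06, and *Uba7* minus *Ube2l6* was 0.82 and 0.38. The SD was smaller among the mutant-labelled than the control-labelled libraries in 10 of the 10 pairs, which share members and libraries. The members also had more reads in the mutant-labelled libraries, and the part of read number in the SD was not tested.

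**Figure D3:**
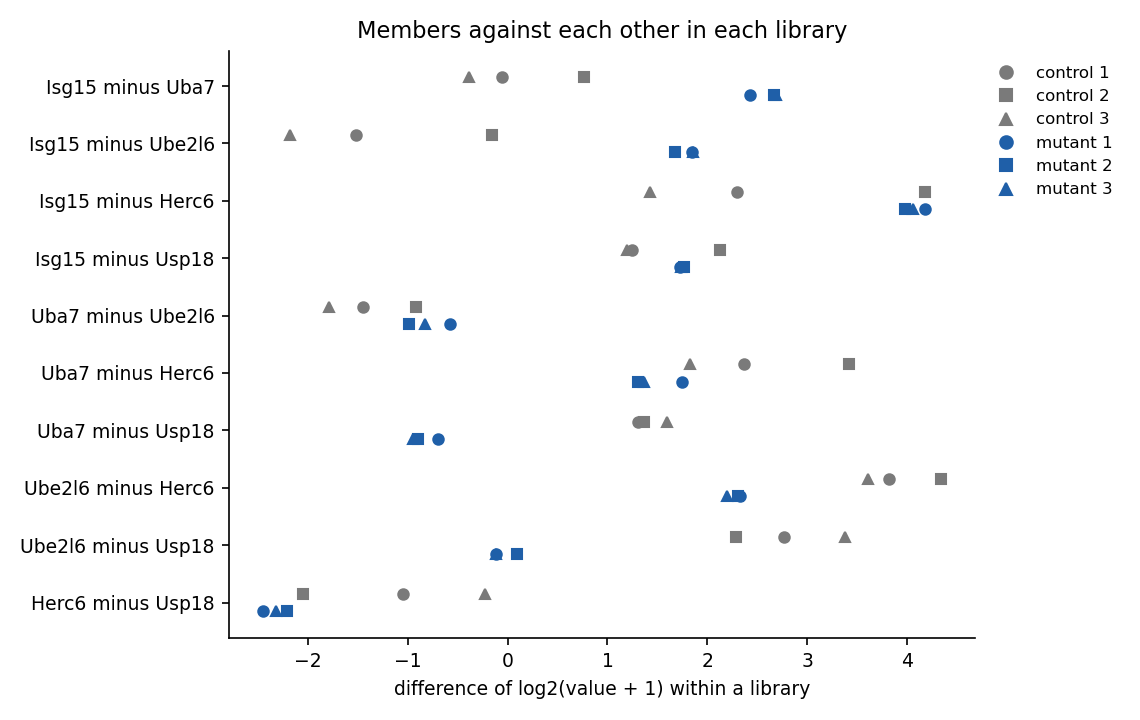
Difference of log2(value + 1) between 2 members within each library, for the 10 pairs, with grey for libraries labelled control, blue for libraries labelled mutant and the symbol shape for the replicate number. *Uba7* minus *Usp18* and *Ube2l6* minus *Usp18* shift by -2.28 and -2.86, while *Isg15* minus *Usp18* overlaps between the groups.

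The likeness of other genes to each member was measured as the root mean square distance of log2(value + 1), taken from the control mean, over the 6 libraries. This measure follows the size of the change as well as the order of libraries. The genes nearest to *Isg15* were *Oasl2* (distance 0.25) and *Oas1a* (0.27), of the oligoadenylate synthetase family, and the guanylate-binding protein gene *Gbp5* (0.33). *Usp18* came at place 6 for *Isg15* (0.34) and *Isg15* at place 8 for *Usp18*. Those nearest to *Usp18* were *Mnda* (0.19), *Trim30a* (0.25) and *Oas1a* (0.28). *Oas1a* went from 236.5, 463.9 and 82.37 to 20595.4, 15564.9 and 19120.8, with the same order of the controls as *Isg15* and *Usp18*.

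*Uba7* was nearest to *Ifitm3*, which encodes a membrane protein that restricts viral entry, *Dtx3l*, which encodes a ubiquitin ligase, and *Gbp7*, all at 0.17. *Ube2l6* was nearest to *B2m* (0.09), *Parp12* (0.12) and the chemokine gene *Ccl7* (0.15). *B2m*, which encodes the light chain of MHC class I, went from 38110.3, 58179.3 and 29910.0 to 382451.5, 350880.8 and 414348.3. The neighbors of *Herc6* were *Asns* (0.15), which encodes asparagine synthetase, and *H2-T-ps* (0.17), an MHC class I pseudogene. *Asns* went from 468.6, 622.7 and 579.1 to 18215.4, 15660.5 and 20548.0. The measure also named *2310043L19Rik*, but without a read in any control-labelled library its distance depends on the pseudocount and is not given. Its difference was at least 9.67-fold, against a floor of 3 reads per control library. Among the members themselves, *Uba7* and *Ube2l6* were 0.50 apart, whereas *Isg15* and *Ube2l6*, at 2.26, were the farthest pair.

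The genes of the same steps in the ubiquitin pathway were taken as counterparts. Of these 11 (2 E1 genes, the E2 gene *Ube2l3*, *Herc1* to *Herc4* and the 4 ubiquitin genes), 2 were called higher and none lower, where 13.9% of all tested genes were called higher and 10.4% lower, and the median log2 fold change was 0.13. *Uba1*, the main ubiquitin E1, had 29016.9, 31373.5 and 31992.0 with the control label and 37230.1, 31995.4 and 34871.7 with the mutant label (log2 fold change 0.17, adjusted p = 0.184 from limma). *Ube2l3*, a close relative of *Ube2l6*, had a log2 fold change of -0.20 (adjusted p = 0.106). Of the large and small HERC genes, *Herc3* rose from 382, 342.1 and 244.6 to 1011.8, 1422.2 and 1532.1 (log2 fold change 2.03, adjusted p = 0.000269), while *Herc1*, *Herc2* and *Herc4* had values of 0.20, -0.36 and 0.13 that did not pass the threshold. In limma, 2 counterparts had lower values at an unadjusted p at or under 0.05, without a 2-fold change. *Uba6*, the other E1, was near the 2-fold limit at 1.03 (adjusted p = 0.00481) and fell below it without control-labelled replicate 3 (0.85) or mutant-labelled replicate 3 (0.97).

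Of 12 other genes that act on ISG15 or bind it, 1 was called higher and none lower (5 were higher and 1 lower at an unadjusted p at or under 0.05 in limma), with a median log2 fold change of 0.19, beside 13.9% higher and 10.4% lower among all tested genes. *Trim25*, which encodes another ligase reported for ISG15, rose from 490.8, 717.2 and 401.7 to 4216.7, 3517.8 and 4322.2 (log2 fold change 2.94, SE 0.21, adjusted p = 2.9e-05 from limma). *Arih1*, the gene of the ligase HHARI, was at 0.49 (adjusted p = 0.0156). The genes of proteases that can also cleave ISG15 conjugates or bind ISG15 probes, *Usp2*, *Usp5*, *Usp13*, *Usp14*, *Usp16*, *Usp21* and *Usp24*, were between -0.34 and 0.74. *Itgal* and *Itgb2*, which encode LFA-1, a receptor for free ISG15, were at 0.87 and 0.16. *Itgal* passed the threshold without control-labelled replicate 2 (1.26) or mutant-labelled replicate 1 (1.04).

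**Figure D4:**
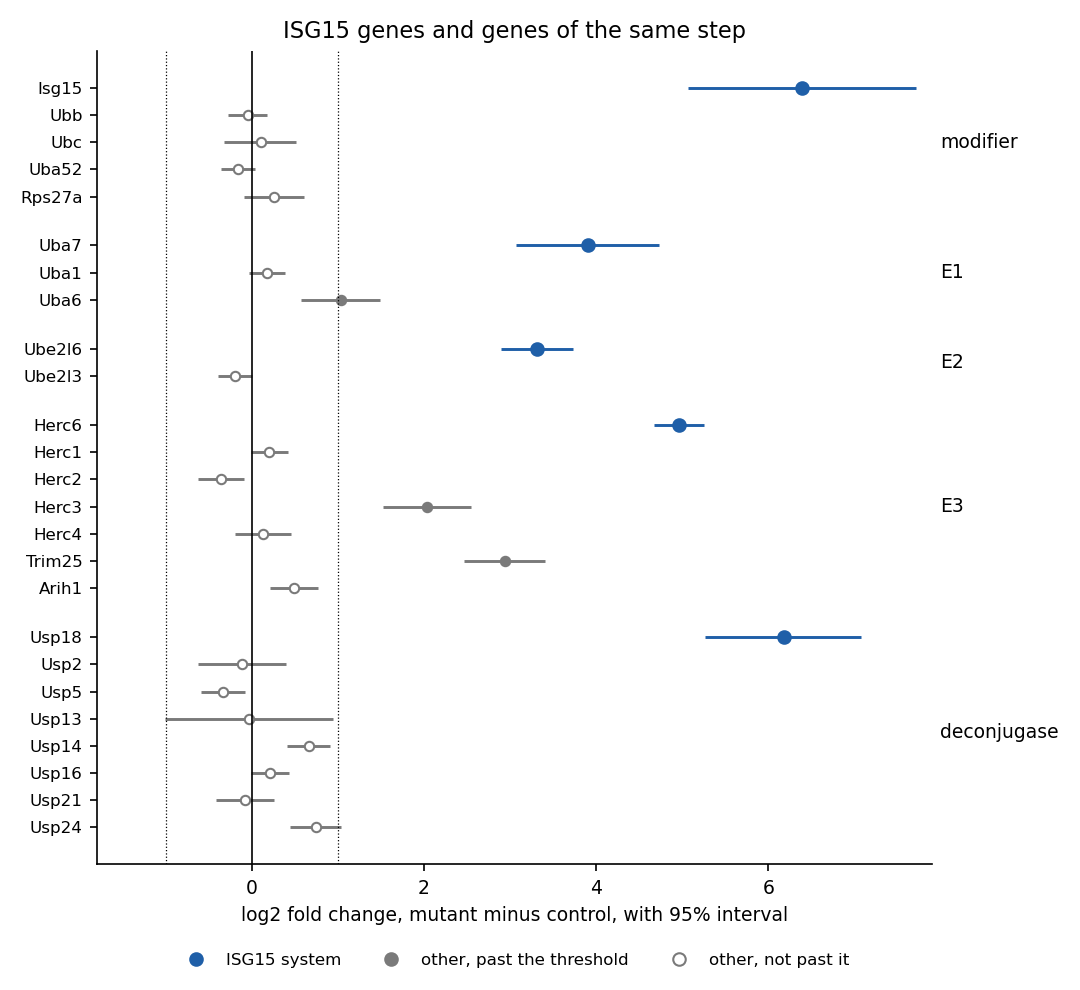
Log2 fold change of mutant-labelled minus control-labelled libraries with its 95% interval (limma) for the members (blue) and for other genes of the same step (grey), where filled symbols passed the threshold, open ones did not and dotted lines mark 2-fold. The members lie between 3.31 and 6.39, and of the others *Trim25* (2.94), *Herc3* (2.03) and *Uba6* (1.03) are filled.

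Among 17 genes whose proteins are known to be ISGylated, 7 were called higher and none lower (11 were higher and 1 lower at an unadjusted p at or under 0.05 in limma), where the shares of all tested genes were 13.9 and 10.4%, with a median log2 fold change of 0.46. The largest changes were those of *Mx1* (8.55), *Ifih1* (5.69) and *Ddx58* (4.42), which encode a viral restriction factor and the RNA sensors MDA5 and RIG-I. *Ifih1* went from 503, 913.7 and 259.8 to 28416.3, 21948.4 and 26733.7 (adjusted p = 2.24e-05 from limma). *Eif2ak2*, *Mb21d1* and *Tmem173*, which encode PKR, cGAS and STING, were also called, at 2.89, 1.86 and 1.84. The 10 substrates not called, among them *Irf3*, *Jak1*, *Pcna* and *Ube2n*, were between -0.25 and 0.67, without a 2-fold change.

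In type I interferon signaling, upstream of the system, 4 of 8 genes were called higher (13.9% of all tested genes) and none lower (10.4% of all), while 6 were higher and 2 lower at an unadjusted p at or under 0.05 in limma, with a median log2 fold change of 1.84. edgeR and DESeq2 on 5 libraries also called none of the counterparts, partners, substrates or interferon signaling genes lower, and no SUMO or UFM1 gene. *Ifnb1*, the interferon beta gene, had 465.5, 408.1 and 507.4 with the mutant label and not a read with the control label, which makes it at least 139-fold higher. *Stat2* went from 2109.8, 3390.3 and 1646.1, with replicate 2 the highest control, to 22840.9, 15373.9 and 16342.5 (log2 fold change 2.98, adjusted p = 7.67e-05). *Irf9* went from 1133.8, 1908.7 and 832.6, in the same order, to 10233.7, 8526.4 and 9334.9 (log2 fold change 2.94, adjusted p = 8.82e-05). The receptor and kinase genes *Ifnar1* (-0.38), *Ifnar2* (0.75), *Jak1* (0.67) and *Tyk2* (-0.57) stayed within 2-fold.

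Other ubiquitin-like modifiers have enzymes of their own. None of 16 SUMO genes and none of 8 UFM1 genes passed the threshold, with medians of 0.23 and -0.10. Against the 13.9% called higher and 10.4% called lower among all tested genes, lists of this length can be read only as counts. In the SUMO system, 9 of the 16 had an unadjusted p at or under 0.05 in limma without a 2-fold change (7 higher and 2 lower), and in the UFM1 system 2 of the 8 did, both lower. Among the smallest changes in these lists were those of *Pias2* (-0.03), *Senp6* (-0.05) and *Ufl1* (0.05). Of 8 NEDD8 genes, *Senp8*, the gene of the NEDD8 protease, was called, at 1.16 (adjusted p = 0.00797 from limma), and it fell just short of 2-fold without control-labelled replicate 2. At an unadjusted p at or under 0.05, 3 NEDD8 genes were higher and 2 lower. *Ubd*, which encodes the modifier FAT10, went from 0, 7.559 and 17.74 to 160, 186.2 and 150.3 (log2 fold change 4.93, adjusted p = 0.00538). *Urm1* was at 0.15.

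**Figure D5:**
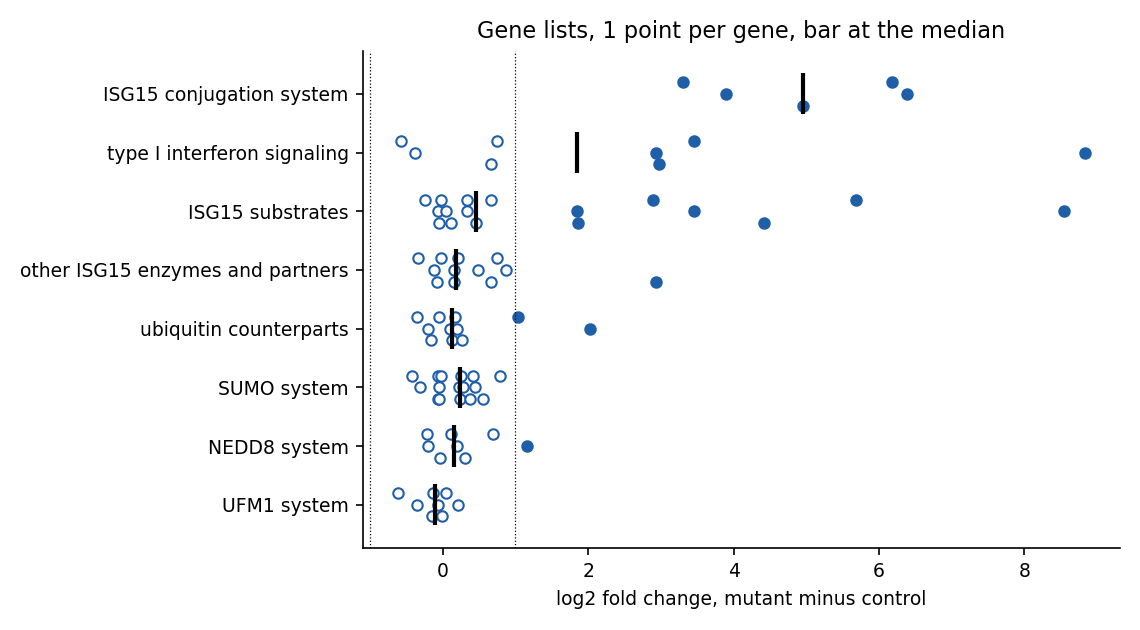
Log2 fold change of mutant-labelled minus control-labelled libraries for each gene of 8 lists, with filled symbols for genes past the threshold, a bar at the median of each list and dotted lines at 2-fold. The members have a median of 4.96, interferon signaling one of 1.84, and the SUMO, NEDD8 and UFM1 systems medians of 0.23, 0.15 and -0.10. The point of *Ifnb1*, at 8.84, is a fitted value against controls without reads.

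The families of *Usp18* and *Ube2l6* were taken by symbol, as Usp followed by a number and as any symbol starting with Ube2. A gene counted in them, such as *Usp6nl* or *Ube2cbp*, need not have the function of the family. Of the 50 other *Usp* genes tested, 6 were called higher and 2 lower, with a median log2 fold change of 0.13, beside 13.9% higher and 10.4% lower among all genes tested. The 4 with the largest fitted changes, *Usp17la*, *Usp17ld*, *Usp17le* and *Usp17lb*, are copies of each other that can share reads. Without reads in the libraries labelled control, their rise was at least 27.4-, 8.86-, 8.1- and 7.83-fold. That of *Usp17la* rested on 161.5, 34.73 and 77.15, and without mutant-labelled replicate 1 (an alternative chosen after seeing the data) it was at least 16.8-fold. The others, named here after their values were seen, were *Usp25* (1.67) and *Usp15* (1.14), which rose, and *Usp32* (-1.14) and *Usp43* (-1.01), which fell. *Usp43* lost its call without control-labelled replicate 2 (-0.87) or mutant-labelled replicate 3 (-0.81). Of the 35 other *Ube2* genes tested, 1 was higher and 1 lower, with a median of 0.08, beside the same shares of all genes. *Ube2d2b*, also without control reads, rose at least 3.37-fold, and *Ube2ql1* fell by 1.24 on the log2 scale (adjusted p = 0.00497 from limma). *Usp18* and *Ube2l6* had thus the largest called changes of their families among the genes with control reads.

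Markers of other cell types moved with the groups, and their part in the values of the members was not tested. Summed over 7 macrophage markers, the level was 9733.4 to 13016.6 in control-labelled and 5484.4 to 7327.0 in mutant-labelled libraries, with *Aif1* and *Fcgr1* called higher and *Csf1r* and *Mrc1* lower. The 3 leukocyte markers summed to 3680.0 to 4155.7 and 3468.7 to 4952.6, and *Ptprc* was called higher (log2 fold change 1.33). The 6 T and NK cell markers were near the floor, at sums of 36.75 to 63.3 and 134.5 to 285.6, and of the 5 tested, *Ncr1*, *Cd8a* and *Klrb1c* were called higher. *Cd3d*, *Cd8a* and *Ncr1* had no reads in the controls. Neutrophil markers summed to 15.12 to 143.2 and 65.28 to 341.9, with none of the 2 tested called, B cell markers to 21.54 to 65.52 and 26.19 to 37.58, with none of 3 called, and plasmacytoid dendritic cell markers to 35.91 to 63.36 and 22.75 to 53.83, with *Siglech* called lower.

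None of 4 endothelial markers was called (sums 10156.7 to 15742.7 and 14841.0 to 18997.9). Of 4 fibroblast markers, only *Col1a1* was called, as lower (1163031.4 to 1320418.1 and 421117.5 to 700020.3). The sums of the 4 were mostly *Col1a1* (1211081.5 to 1381383.9 and 478182.1 to 748607.2). All 3 erythroid markers were lower (sums 39540.2 to 55605.4 and 3796.3 to 11700.7). The SC marker *S100b* was at 8042.0 to 8378.8 and 686 to 1534.8, and *Erbb3* at 9161.1 to 11041.2 and 2647.5 to 4206.5. Of 4 skeletal muscle markers, 3 were higher (sums over the 4 of 2736.4 to 16506.7 and 18189.3 to 146501.5), and mutant-labelled replicate 3 had the highest sum.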

How the data were processed

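RNA was sequenced from the sciatic nerve of 6 mice at P4. The authors mapped the reads with STAR 2.4.0 to mm10, counted those on constitutive regions of FAST DB genes, and deposited 1 table of the signal of each gene, the count in a library divided by its DESeq size factor. Whether the counting used the strand of the oriented libraries is not given in the sources used here. Groups and replicate numbers came from the labels, and the numbers stand for different animals.

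Members were found by splitting the symbols. The members and lists were chosen with earlier results of these data known. limma (lmFit and eBayes, trend on) was run on log2(value + 1) of the 25802 genes whose mean reached 10 in 1 or both groups. Calls followed the limits in the study's methods, a 2-fold change or more with a p no higher than 0.05. Those methods do not say whether the p was adjusted, and the unadjusted p was used here. P-values were adjusted by Benjamini-Hochberg across the whole set of genes tested. Log2 fold changes are on the log2(value + 1) scale, which understates the change of low genes. Genes named by rule are the members, *Adar*, the called genes of each list (at most 4, by size of change, and 2 of the smallest change where none was called) and the 3 genes with the profile nearest to each member. Further genes of the lists, and cell type markers, are named beside this rule. Counts over lists include a few genes left out of the text and not reported here.

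Divided by the value of 1 read, 100% of the values came out whole (tolerance 0.001). edgeR's quasi-likelihood test and DESeq2 were run on the reads of 5 libraries, since the recovery of reads could not be checked by the same measure for mutant-labelled replicate 3, whose value of 1 read (0.989) is too near 1. Folds against controls without reads are lower bounds against 3 reads per library. These bounds and the counting errors given cover counting error only, as the reads were amplified by PCR without molecular identifiers. Near-identical transcripts (at least 90% identical over at least 300 bases) were looked for with megablast among GENCODE vM21 transcripts. R 4.3.3, limma 3.58.1, edgeR 4.0.16, DESeq2 1.42.0, Python 3.11.15, scipy 1.17.1 and matplotlib 3.10.9 were used.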

Additional observations from a re-analysis of the deposited data

How the results depend on the processing

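All 5 members were called under each of the 18 alternatives. These were pseudocounts of 0.1 and 10, no filter on low values or a mean of at least 50, a replicate block, TMM factors, libraries rescaled to 1 total or to 1 value of the 75th percentile, calls by the adjusted p, limma without trend, each library left out in turn and, chosen after seeing the data, edgeR and DESeq2 on 5 libraries. The planned edgeR and DESeq2 fits on all 6 libraries were not run, and TMM factors came from the deposited values. The log2 fold change of *Isg15* ran from 5.77 to 7.17, of *Usp18* from 5.71 to 6.65, of *Uba7* from 3.52 to 4.35, of *Ube2l6* from 3.14 to 3.53 and of *Herc6* from 4.87 to 5.12, and the largest adjusted p was 0.00489, for *Uba7* in limma without trend. For the first 4, both ends came from leaving out control-labelled replicate 3 or 2. Samples with the same replicate number did not deviate together (correlations -0.0619, -0.0555 and 0.00891), and with the replicate block *Isg15* stayed at 6.39 (adjusted p = 0.000231 from limma) and no count of members or lists moved by over 1.5 times.

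Counts of list genes moved more. Of the ubiquitin counterparts, 1 was called higher with DESeq2, edgeR and the same 75th percentile, and 1 to 2 with a library left out. Of the other ISG15 genes, 2 were higher with the same total, and 1 to 2 with a library left out. Of the NEDD8 genes, 0 to 1 were higher with a library left out. With a mean of at least 50, 3 *Usp* genes and 0 *Ube2* genes were higher, since fewer genes were tested. Of the *Usp* genes, 1 was lower with DESeq2, edgeR and a pseudocount of 10, 0 with the same total, and 1 to 2 with a library left out. Small values changed sign. *Pias2* was at 0.13 and *Senp6* at 0.12 with the same total, and *Pias2* at -0.08 to 0.02 with a library left out. *Ufl1* was at -0.02 with DESeq2, edgeR and the same 75th percentile and -0.03 to 0.14 with a library left out. The cause was not tested beyond the shift of all genes, whose median log2 fold change was 0.19 with the same total (66.16% of called genes higher) and -0.03 with the same 75th percentile (53.39% higher), against 0.03 (57.27%).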
